A study of Mus musculus with 2 samples.

Results

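The genes of sphingosine-1-phosphate (S1P) signalling and metabolism were followed in ribosome-bound RNA from mouse cerebral cortex. They were listed by symbol, though with earlier results of these data known. The list holds the receptor genes S1pr1, S1pr2, S1pr3, S1pr4 and S1pr5, the kinase genes Sphk1 and Sphk2, the lyase gene Sgpl1 and the transporter gene Spns2. All 9 had a row among the 32531 genes listed for each library. The series holds 1 group of 2 immunopurified libraries, IP1 and IP2, from adult mice, all untreated and of line ES2243 (Gdnf-EGFP/Rpl10a). These mice carry a ribosomal protein, Rpl10a, fused to enhanced green fluorescent protein, whose expression follows Gdnf regulatory sequence; tagged polysomes were pulled from cortex homogenate with antibodies to the fluorescent tag. Both libraries carry the same transgene, and neither the labels nor the design text gives sex, number of animals or pooling, so their difference may be technical. Unpurified cortex was not analysed here, and enrichment over the tissue is therefore not given.

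S1P is a lipid signal made inside cells when a sphingosine kinase phosphorylates sphingosine, which is itself set free from ceramide. It leaves the cell through a transporter, is carried in plasma, and acts on a family of G protein-coupled receptors on the surface of the same or other cells. A phosphatase can return S1P to sphingosine, whereas the lyase in the endoplasmic reticulum cleaves it irreversibly. In blood vessels the receptors differ in their partners: S1P receptor 1 couples to Gi proteins and helps to keep the endothelial barrier tight, while receptors 2 and 3 also engage Gq and G12/13 proteins, through which small GTPases raise the tone of smooth muscle and other mural cells.

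The libraries held 65200231 (IP1) and 72732502 (IP2) reads counted in genes, and levels are given as CPM, the reads of a gene per 1000000 of these reads. No exon lengths were used, so a CPM value compares 1 gene between libraries; an order of genes by CPM is an order of reads, in which a longer transcript collects more. The driver gene Gdnf was counted at 10.2 (IP1) and 7.84 CPM (IP2), and the tag gene Rpl10a at 4.37 and 3.74 CPM. Reads aligned to several places, 31.2 (IP1) and 31.5% (IP2) of listed reads, are not in these counts. How many of them belong to Rpl10a is unknown, so its CPM is not a measure of how strongly the tag was expressed. The design text calls the profiled cells pericytes. Pericyte markers were present, and all 8 genes examined reached 10 CPM in both libraries. Rgs5 (4841 and 4061 CPM in IP1 and IP2) and Vtn (396 and 585 CPM) were highest, and the summed level was 6339 (IP1) and 6170 CPM (IP2). Reaching that level was not particular to pericyte genes. It held for 7 of 7 neuronal, 5 of 5 oligodendrocyte precursor, 5 of 5 oligodendrocyte and 5 of 6 astrocyte genes. Of all genes with at least 1 count, 47.0% reached it. Markers of other cells were present too, with summed levels of 14680 and 12692 CPM for 7 neuronal, 2190 and 2660 CPM for 5 oligodendrocyte precursor, 1429 and 2472 CPM for 6 astrocyte and 1342 and 1292 CPM for 5 oligodendrocyte genes. Most of the neuronal sum came from Snap25 (12770 and 10795 CPM), and most of the pericyte sum from Rgs5. The sums therefore do not rank the cell types. In such a bulk sample fewer cells of a type and less RNA per cell cannot be told apart, and no S1P gene can be assigned to 1 cell type from these counts.

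Of the 9 genes, 5 reached 10 CPM in both libraries: S1pr1, S1pr3, S1pr5, Sphk2 and Sgpl1. The same held for 47.0% of the 19580 genes with at least 1 count, so the share among the S1P genes was near the background; under TMM scaling and DESeq2 size factors 4 of the 9 reached it. Spns2 passed that level in IP2 alone, S1pr2 and Sphk1 were lower in both, and S1pr4 was at the limit of detection. By reads, the order of means was S1pr3, S1pr1, Sphk2, Sgpl1, S1pr5, Spns2, S1pr2, Sphk1 and S1pr4. Among the 8 neighbouring pairs in this order, the ranges of the libraries overlapped in 2, Sphk2 with Sgpl1 and S1pr5 with Spns2. With 2 values for each gene, the smallest p that a two-sided exact permutation test between genes allows is 0.333, and none was run.

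**Figure D1:**
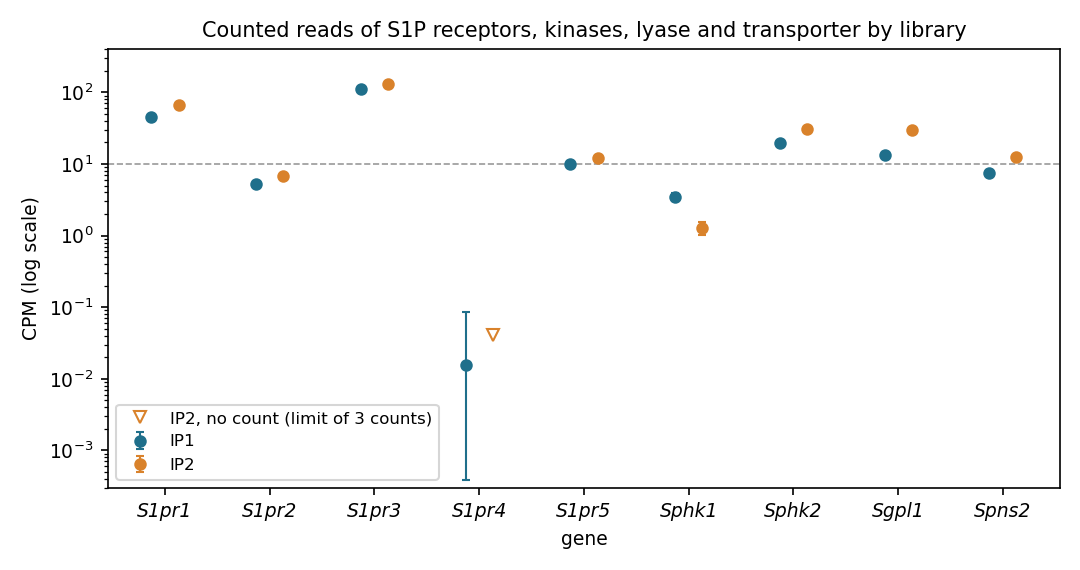
CPM of each S1P gene in IP1 and IP2 on a log axis, with exact 95% Poisson intervals for the counts; the dashed line marks 10 CPM, and the open triangle stands for no count, drawn at the limit of 3 counts. S1pr3 lies above 100 CPM in both libraries, S1pr4 rests on 1 read, and Sphk1 is the gene above S1pr4 that is clearly higher in IP1.

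The libraries were compared by the ratio of IP1 to IP2. Among the 13956 genes averaging 1 CPM or more, 20.9% differed by 1.5-fold or more in either direction, 10.8% being higher in IP1 and 10.1% higher in IP2, and the median log2 ratio of IP1 over IP2 was 0.04. Of the 8 S1P genes above that mean, 4 passed 1.5-fold: Sphk1 was higher in IP1, and Sphk2, Sgpl1 and Spns2 were lower in IP1. The 4 receptors above that mean were lower in IP1 but within 1.5-fold, except that S1pr1 passed it under TMM scaling and DESeq2 size factors (log2 ratio -0.60 under both, against -0.54). The counting intervals of Sphk2, Spns2 and S1pr1 spanned 1.5-fold, so which side of it these genes fall on is not fixed at this depth. IP1 and IP2 are replicates of 1 group, so these ratios describe the spread behind each mean and no condition. Relative to the mean, the SD of these 8 genes was largest for Sphk1 and Sgpl1 and smallest for S1pr3.

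**Figure D2:**
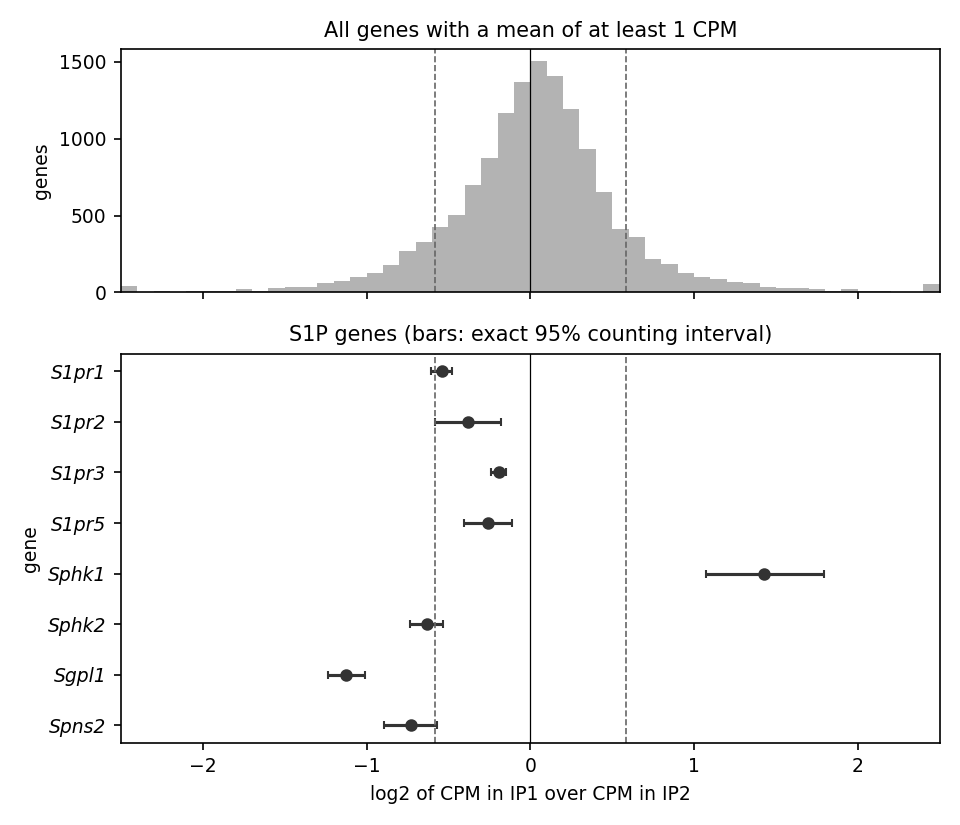
Log2 ratio of IP1 over IP2 for all genes averaging 1 CPM or more (top, number of genes in each bin, 0.5 counts added, values beyond 2.5 placed in the end bins) and for 8 S1P genes with exact 95% counting intervals (bottom). Dashed lines mark 1.5-fold; Sphk1 lies to the right, Sphk2, Sgpl1 and Spns2 to the left of them, and the receptors between them.

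S1pr3, a receptor of vascular mural cells that couples to Gi, Gq and G12/13, took the most reads of the family. It had 7355 reads in IP1 and 9388 in IP2, which is 113 and 129 CPM (121 ± 11.5 CPM, SD, n = 2). The libraries were close for this gene, with a ratio of IP1 to IP2 of 0.87 (exact 95% interval 0.85 to 0.90). The gene spans chromosome 13, 51408618 to 51422797, in GRCm38.p6, the RefSeq release of the mm10 assembly. A RefSeq long noncoding RNA gene without a row in the count tables, Gm32834, overlaps 10095 bases of that span. Reads of the overlap could not be checked, since the annotation behind the counts is unknown here.

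The 300 bases around the annotated start of S1pr3 are shown because it is the receptor with the most reads (chr13:51408368-51408667, plus strand, 250 bases before to 50 bases after the start, RefSeq GRCm38.p6). Capitals mark matches, on either strand, to any of 6 short motifs: the GC box GGGCGG bound by Sp proteins, AP-1 (TGANTCA), the cyclic AMP response element TGACGTCA, the TATA box TATAAA, the RBPJ motif TGGGAA of Notch signalling and the forkhead motif TGTTTAC.
S1pr3: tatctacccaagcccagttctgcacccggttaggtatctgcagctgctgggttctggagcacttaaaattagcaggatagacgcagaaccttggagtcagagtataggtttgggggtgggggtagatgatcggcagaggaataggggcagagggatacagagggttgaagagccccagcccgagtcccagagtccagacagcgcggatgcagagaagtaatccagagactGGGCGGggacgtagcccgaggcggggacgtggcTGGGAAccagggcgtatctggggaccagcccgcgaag
The window held 1 GC box, a motif found in 35.7% of all 32851 promoter windows of this length, and 1 RBPJ motif, found in 25.6% of them. No marked match overlaps another here, and a match describes the letters only. The S1pr2 window held 1 GC box and 1 cyclic AMP response element, the S1pr5 window 2 GC boxes and 1 RBPJ motif, and the S1pr4 window none of the 6 motifs.

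S1pr1 encodes the Gi-coupled receptor best known from endothelium and lymphocytes and also found in astrocytes. It had 2943 reads in IP1 and 4782 in IP2, or 45.1 and 65.7 CPM (55.4 ± 14.6 CPM, SD, n = 2), and was thus lower in IP1, at a ratio of 0.69 (0.66 to 0.72). Endothelial markers were few: Emcn (42.1 CPM in IP1, 33.3 CPM in IP2) and Flt1 (9.89 and 12.03 CPM) led the 8 genes, whose sum was 63.5 and 60.0 CPM, and Cldn5, the tight junction gene that defines the brain endothelium, had 5 reads in IP1 and 0 in IP2. All 6 astrocyte markers were, like S1pr1, lower in IP1, led by Slc1a2 (1158 and 2028 CPM) and Slc1a3 (99.4 and 212 CPM). The part of astrocyte RNA in the S1pr1 difference was not tested. S1pr1 spans 4623 bases on chromosome 3 (115710433 to 115715055) and overlaps no other RefSeq gene.

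S1pr5 and S1pr2 were counted at lower levels. S1pr5, a receptor of oligodendrocytes and natural killer cells, had 660 and 882 reads in IP1 and IP2, or 10.1 and 12.1 CPM (11.1 ± 1.42 CPM, SD, n = 2), with a ratio of 0.83 (0.75 to 0.92). The oligodendrocyte marker Cnp was at 477 and 432 CPM beside it. Of the 5 oligodendrocyte markers, 3 were lower in IP1, as S1pr5 was, and 2, Cnp among them, were higher. The part of oligodendrocyte RNA in the S1pr5 reads was not tested. S1pr2, the receptor that couples most strongly to G12/13 proteins, had 344 and 499 reads, or 5.28 and 6.86 CPM (6.07 ± 1.12 CPM, SD, n = 2), with a ratio of 0.77 (0.67 to 0.88). Both genes lie on chromosome 9 (S1pr5 at 21242917 to 21248443, S1pr2 at 20965952 to 20976793).

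S1pr4, the receptor of lymphoid and other blood cells, had 1 read in IP1 and 0 in IP2. A count of 0 allows up to 3 reads, which is 0.046 (IP1) and 0.041 CPM (IP2), and the exact upper bound on the single read in IP1 was 0.085 CPM. No fold is given between values this low. Of the lymphocyte markers, Cd3g and Cd8a had no count in either library, Ptprc had 5 and 2 reads in IP1 and IP2, and Cd79a had 4 and 0 reads. S1pr4 was the 1 receptor of the family not detectable above this limit in either library.

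Taken as shares of all receptor reads (11303 in IP1, 15551 in IP2), S1pr3 held 65.1% in IP1 (exact 95% binomial interval 64.2 to 66.0%) and 60.4% in IP2 (59.6 to 61.1%). S1pr1 held 26.0% (25.2 to 26.9%) and 30.8% (30.0 to 31.5%). For both receptors the intervals of the libraries did not overlap, whereas the shares of S1pr5 (5.84 and 5.67%) and S1pr2 (3.04 and 3.21%) had overlapping intervals. These are shares of reads and not of transcripts. When each receptor's reads were divided by the length of its gene span, which exceeds the transcript where introns are long, S1pr1 came first with 11.99 ± 3.15 CPM per kilobase of span and S1pr3 second with 8.53 ± 0.81 (SD, n = 2 each). On that scale S1pr3 held 37.2 ± 3.45% and S1pr1 51.5 ± 4.01% of the receptor total. The order of these receptors per transcript is thus not settled by these counts, while S1pr2 (0.56 ± 0.10 CPM per kilobase of span), S1pr5 (2.01 ± 0.26) and S1pr4 came below both on either scale.

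**Figure D3:**
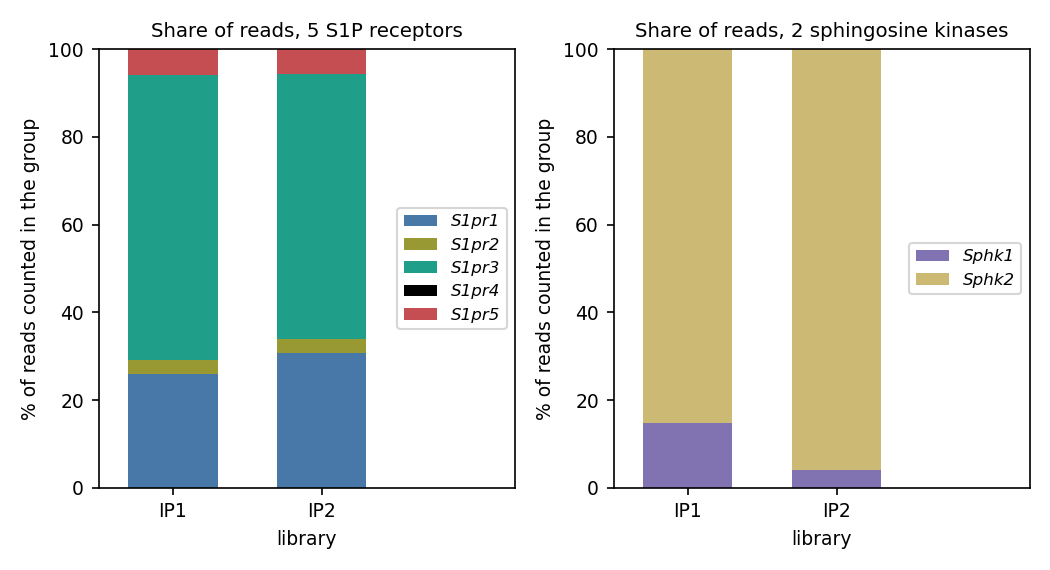
Share of reads in each library among the 5 S1P receptors (left) and the 2 sphingosine kinases (right), in percent and without correction for length. S1pr3 and S1pr1 fill most of both receptor bars, and the Sphk1 segment is 14.7% of kinase reads in IP1 and 3.97% in IP2.

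The sphingosine kinase genes differed between the libraries in opposite directions. Sphk1, a mainly cytosolic kinase that is induced and activated by growth factors, had 224 reads in IP1 and 93 in IP2, or 3.44 and 1.28 CPM (2.36 ± 1.53 CPM, SD, n = 2). Its ratio of IP1 to IP2 was 2.69 (2.10 to 3.46). Sphk2, found in nuclei and mitochondria, had 1300 and 2250 reads, or 19.9 and 30.9 CPM (25.4 ± 7.78 CPM, SD, n = 2), with a ratio of 0.64 (0.60 to 0.69). Sphk1 therefore made up 14.7% (13.0 to 16.6%) of kinase reads in IP1 and 3.97% (3.22 to 4.84%) in IP2. Sphk2 (chromosome 7, 45709463 to 45718002) overlaps Dbp by 741 bases and Rpl18 by 2536 bases. Without a known strand setting, reads in these stretches cannot be told apart or may have been left unassigned. Sphk1 (chromosome 11, 116530836 to 116536675) overlaps no other RefSeq gene.

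Most of the immediate early genes examined, which respond within minutes to stimulation, were also higher in IP1. Of 12 such genes, 8 were higher in IP1 by 1.5-fold or more and 0 were higher in IP2 by as much. Over all genes averaging 1 CPM or more, these shares were 10.8% and 10.1%. The list was drawn up after values were seen, so the counts cannot test whether such genes differ more often than others. Jun and Arc were higher in IP1 by less, with ratios of 1.47 and 1.35, while Fosb (16.7 and 21.0 CPM in IP1 and IP2, ratio 0.80) and Egr3 (205 and 243 CPM, ratio 0.85) were lower in IP1, and the summed level of the 12 genes was 1513 (IP1) and 821 CPM (IP2). Egr1, at 728 and 281 CPM, had a ratio of 2.59. Their part in the Sphk1 difference was not tested.

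The lyase gene and the transporter gene were both lower in IP1. Sgpl1, the enzyme that ends S1P irreversibly, had 884 reads in IP1 and 2148 in IP2, or 13.6 and 29.5 CPM (21.5 ± 11.3 CPM, SD, n = 2), and a ratio of 0.46 (0.42 to 0.50). For every 100 kinase reads there were 58.0 Sgpl1 reads in IP1 and 91.7 in IP2. Spns2, the exporter that releases S1P from endothelial cells, had 485 and 898 reads, or 7.44 and 12.3 CPM (9.89 ± 3.47 CPM, SD, n = 2), and a ratio of 0.60 (0.54 to 0.67). Of the endothelial markers, 5 of 8 were lower in IP1 as Spns2 was, although their sum was not. The part of endothelial RNA in the Spns2 difference was not tested. Sgpl1 spans chromosome 10, 61098642 to 61147684, and Spns2 chromosome 11, 72451638 to 72489976, where 133 bases overlap Mybbp1a and 4436 bases a long noncoding RNA gene without a row in the count tables, Gm40194.

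The starts of Sphk1 and Sgpl1 are shown because these genes had the largest ratios between the libraries in either direction (RefSeq GRCm38.p6, same window and capitals as for S1pr3). Of the 5 windows available for Sphk1, the first (chr11:116530850-116531149, plus strand) and second (chr11:116531587-116531886, plus strand) by position are given. The annotated span of Sphk1 begins at 116530836, before the first window, so a start there has no window here. The window of Sgpl1 is chr10:61147635-61147934 on the minus strand.
Sphk1 first start: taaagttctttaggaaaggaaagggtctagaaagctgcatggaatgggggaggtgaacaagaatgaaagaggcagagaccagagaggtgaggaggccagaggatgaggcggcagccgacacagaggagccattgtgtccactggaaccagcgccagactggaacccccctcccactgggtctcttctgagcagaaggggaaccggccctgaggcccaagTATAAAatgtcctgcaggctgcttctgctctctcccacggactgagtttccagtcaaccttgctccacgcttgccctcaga
Sphk1 second start: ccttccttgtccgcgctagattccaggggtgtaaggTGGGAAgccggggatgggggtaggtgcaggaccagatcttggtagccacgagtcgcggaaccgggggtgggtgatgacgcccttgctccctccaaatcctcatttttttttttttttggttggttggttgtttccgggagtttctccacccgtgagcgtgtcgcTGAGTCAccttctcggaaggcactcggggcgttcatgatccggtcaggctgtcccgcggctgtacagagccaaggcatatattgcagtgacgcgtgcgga
Sgpl1: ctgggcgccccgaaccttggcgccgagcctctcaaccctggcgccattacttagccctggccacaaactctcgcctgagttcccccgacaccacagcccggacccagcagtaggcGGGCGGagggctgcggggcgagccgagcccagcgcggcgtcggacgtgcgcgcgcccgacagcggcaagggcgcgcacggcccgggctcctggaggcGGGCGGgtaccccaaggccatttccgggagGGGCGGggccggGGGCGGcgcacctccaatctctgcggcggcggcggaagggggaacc
The first Sphk1 window held 1 TATA box, present in 13.6% of all promoter windows. The second held 1 AP-1 match, present in 7.81%, and 1 RBPJ match; its AP-1 match falls also in the window that overlaps it, and the last 2 windows held none of the 6 motifs. Sgpl1 held 4 GC boxes in a window of 75.3% G and C, against a median of 52.7% over all windows. The remaining motifs were rare among all windows, at 1.79% for the cyclic AMP response element and 3.65% for the forkhead motif. RNA counts do not show which start was used.

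The genes around S1P were read from 8 lists with 68 genes, of which 67 had a row (Cers1 had none) and 41 reached 10 CPM in both libraries, beside 47.0% of all genes with a count. Of the 59 averaging 1 CPM or more, 2 were higher in IP1 by 1.5-fold or more, beside 10.8% of all such genes, and 8 were higher in IP2, beside 10.1%.

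Upstream of the kinases, 9 of the 16 genes of sphingoid base and ceramide synthesis with a row and 7 of the 12 that release sphingosine reached 10 CPM in both libraries. Degs1, the desaturase of the last step to ceramide, had 63.7 (IP1) and 92.4 CPM (IP2), and the ceramide synthase genes Cers2 (59.5 and 60.3 CPM), Cers5 (37.6 and 46.3 CPM) and Cers4 (28.8 and 34.0 CPM) came after it in reads. Sptlc3, a subunit of serine palmitoyltransferase, had no count. On the release side were the sphingomyelinase genes Smpd4 (35.0 and 30.8 CPM) and Smpd1 (28.2 and 29.5 CPM), the acid ceramidase gene Asah1 (18.1 and 36.0 CPM) and Galc (13.8 and 18.5 CPM), which encodes galactosylceramidase. Asah1, whose product yields the sphingosine used by the kinases, was lower in IP1 with a ratio of 0.50, as Sgpl1 was. Acer1, a ceramidase gene of skin, had no count.

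Downstream, the genes that remove S1P or its breakdown product took many reads. Sgpp1, the S1P phosphatase of the endoplasmic reticulum, was at 101 (IP1) and 122 CPM (IP2). Ppap2b, a cell-surface lipid phosphatase now named Plpp3 that acts on S1P and lysophosphatidic acid, was at 84.1 and 154 CPM, a ratio of 0.55, and its relative Ppap2a at 9.88 and 11.5 CPM. Aldh3a2, which oxidises the fatty aldehyde left by the lyase, was at 138 and 136 CPM. Of 7 carriers and other transporters, the cholesterol exporter gene Abca1 (23.4 and 47.2 CPM) and Abcg2 (13.6 and 16.8 CPM) reached 10 CPM in both, followed by Abcc1 (7.96 and 6.27 CPM) and the Spns2 relative Spns1 (2.78 and 4.91 CPM). The S1P exporter gene of red blood cells, Mfsd2b, had 28 reads in IP1 and 10 in IP2. The 3 erythroid markers summed to 2.82 and 1.24 CPM, with Hbb-bs and Hba-a2 highest. All 3 were, like Mfsd2b, higher in IP1, but these are low counts. Of the 3 markers only Hbb-bs averaged 1 CPM or more, and Mfsd2b averaged 0.28 CPM. For Hba-a2 the interval of the ratio (0.91 to 2.61) spanned equal levels. The part of these markers in the Mfsd2b difference was not tested.

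The receptors for lysophosphatidic acid, the other large family of lysophospholipid receptors, had 1 of 6 members at 10 CPM in both libraries. This was Lpar1, at 64.1 (IP1) and 80.7 CPM (IP2). Lpar6 (4.92 and 3.90 CPM), Lpar3 (2.25 and 5.40 CPM) and Lpar4 (1.24 and 1.29 CPM) followed in reads. The S1P receptors summed to 173 (IP1) and 214 CPM (IP2), and the 6 lysophosphatidic acid receptors to 73.4 and 92.3 CPM, both as reads without length.

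The signalling partners of the receptors were counted evenly in both libraries. All 7 G alpha genes through which S1P receptors act reached 10 CPM in both, led by Gnai1 (542 CPM in IP1, 497 CPM in IP2), Gnaq (533 and 477 CPM), Gnai2 (402 and 402 CPM) and Gna13 (320 and 325 CPM). So did all 7 genes of the small GTPase branch, with Rac1 (1355 and 1170 CPM), Arhgef12 (731 and 760 CPM), a GTPase activator bound by G12/13 proteins, the protein kinase gene Rock2 (686 and 643 CPM) and Rhoa (237 and 205 CPM) highest. Of 6 receptor kinases and arrestins, which switch off and internalise active receptors, 5 reached that level, led by Arrb1 (219 and 204 CPM), with Adrbk2 (55.7 and 56.0 CPM), Grk5 (47.0 and 52.6 CPM) and Adrbk1 (42.7 and 46.0 CPM) after it. None of these 20 genes differed by 1.5-fold between the libraries, beside 20.9% of all genes averaging 1 CPM or more. These genes lie well above 1 CPM, so that share is not one of genes at like levels. They are used by many receptors and cell types, so their reads do not bear on S1P alone.

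**Figure D4:**
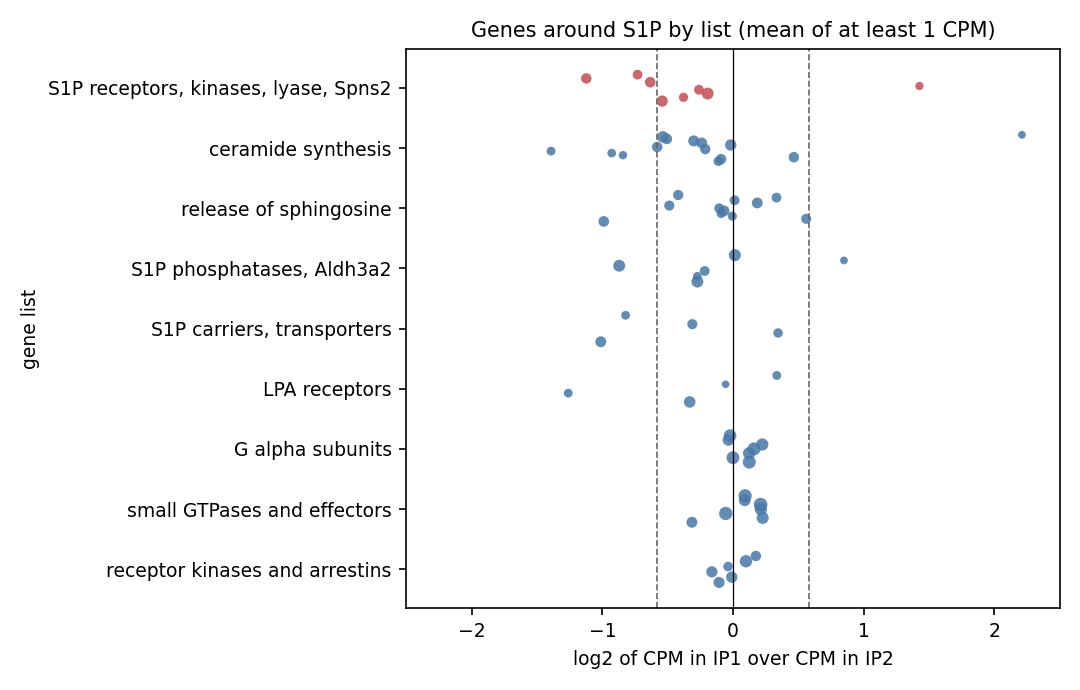
Log2 ratio of IP1 over IP2 for the S1P genes (red) and for 8 lists of genes around them (blue), each point a gene averaging 1 CPM or more and its size growing with the log of that mean. Dashed lines mark 1.5-fold. The signalling partners in the lowest 3 rows cluster near 0, while the metabolic genes and carriers spread to both sides, though unevenly. Of all blue points, 2 lie beyond 1.5-fold to the right and 8 to the left.

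Markers of further cell types were counted in the same libraries. Arterial smooth muscle was represented by 4 of 4 genes at 10 CPM, with Acta2 (373 CPM in IP1, 306 CPM in IP2) and Myh11 (206 and 207 CPM) highest and a sum of 643 and 578 CPM, and fibroblasts by 4 of 4 genes, with Dcn (206 and 236 CPM) and Col1a2 (47.6 and 90.3 CPM) highest and a sum of 322 and 426 CPM. Microglial genes were scarce, 0 of 7 reaching 10 CPM in both, with Tmem119 (9.46 and 13.6 CPM) and P2ry12 (6.66 and 5.72 CPM) highest and a sum of 29.2 and 34.8 CPM. Genes lower in IP1, the direction of Sphk2, Sgpl1, Spns2 and the receptors, were 4 of 4 for fibroblasts, 6 of 6 for astrocytes, 6 of 8 for pericytes, 6 of 7 for microglia, 5 of 8 for endothelium, 3 of 4 for smooth muscle, 3 of 5 for oligodendrocytes, 3 of 5 for their precursors and 4 of 7 for neurons. The part of these cell types in those differences was not tested. The highest genes of the abundant lists were Snap25 (12770 and 10795 CPM) and Syt1 (699 and 723 CPM) for neurons and Olig1 (985 and 913 CPM) and Pdgfra (326 and 632 CPM) for oligodendrocyte precursors.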

How the data were processed

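Ribosome-bound RNA of 2 immunopurified cortex libraries of 1 group was analysed. The deposited files hold raw counts of reads per gene symbol, made by the authors with STAR 2.0.0e on mm10 and HTSeq, per the submitters' processing notes. The annotation and strandedness of counting were not given in the sources used here, so reads of antisense neighbours cannot be told apart. Reads in genes were 58.1% of listed reads in IP1 and 57.7% in IP2; 31.2 and 31.5% aligned to several places, and 1.64 and 1.60% matched several genes. Summary lines and a row named unknown (1 read in IP1, 0 in IP2) were left out.

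CPM was computed on the total of gene counts. Levels are given per library and as mean ± SD. Counts have exact Poisson intervals, shares exact Clopper-Pearson intervals, and ratios of IP1 to IP2 intervals from the exact binomial, all at 95% and without any p-value; they cover counting error only, since reads without molecular identifiers are not independent molecules. A ratio of 1.5 and a level of 10 CPM were used to count genes. The ratio and its interval were run on counts simulated with Poisson noise alone, some genes being changed by known folds. Such counts hold no spread between replicates, so this checks the computation and not how far real libraries differ. Genes averaging below 10 CPM, among them Sphk1, S1pr2 and Spns2, were left out of it. Exon lengths were not at hand, so the length-weighted results set out in the design were replaced by read shares, and gene span was added as an alternative after the values were seen. Gene positions and promoter windows came from RefSeq tables of GRCm38.p6, which hold windows for 8 of the 9 genes. Alternatives were the TMM scaling of edgeR 4.0.16 and size factors of DESeq2 1.42.0 (R 4.3.3), a total without Rn45s (3.64% of gene counts in IP1, 3.95% in IP2), other thresholds and single libraries; the rest used Python 3.11.15, numpy 2.4.6, pandas 2.3.3, scipy 1.17.1 and matplotlib 3.10.9.

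The S1P genes and all gene lists were chosen with earlier results of these data known. Named beside the S1P genes are Gdnf, Rpl10a, the 4 highest genes by mean CPM of each list around S1P, the 2 highest of each cell type list, and members of either without any count; some genes that this rule names are not reported here. Cldn5, Mfsd2b and the immediate early genes were named after their values were seen, as were the genes under other observations. The rule itself named no gene for a like pattern. Directions were nonetheless compared in the text. The immediate early genes are set beside Sphk1, the erythroid markers beside Mfsd2b and Asah1 beside Sgpl1. Astrocyte markers are set beside S1pr1, oligodendrocyte markers beside S1pr5 and endothelial markers beside Spns2. Markers of these and further cell types are also set beside the S1P genes lower in IP1. With 2 libraries of 1 group, a shared direction rests on 2 values for each gene.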

Additional observations from a re-analysis of the deposited data

How the results depend on the processing

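With 20 CPM in place of 10 CPM, 2 of the 9 S1P genes reached the level in both libraries (S1pr1 and S1pr3) in place of 5; with a ratio of 2 in place of 1.5, 2 genes (Sphk1 and Sgpl1) passed in place of 4. The mean share of S1pr3 in receptor reads was 62.7% and fell to 37.2% per kilobase of gene span, which divides by the longer span of S1pr3. The other alternatives left the counts of genes within 1.5 times: TMM scaling, DESeq2 size factors, a total without Rn45s, 5 CPM, a lower ratio, no filter on low counts, and each library alone for the levels. S1pr1 passed 1.5-fold under TMM scaling and DESeq2 size factors (log2 ratio of IP1 over IP2 of -0.60 under both, against -0.54). All 24 ratios of single S1P genes under other scalings kept their sign. Weighting by transcript or coding length was not run, since exon lengths were not at hand. No paired analysis was possible because the series has 1 group. Depth limits Sphk1 most, with 93 reads in IP2, and S1pr4, where 3 reads set the limit.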

Other observations

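10 genes around S1P that averaged 1 CPM or more differed by 1.5-fold or more between the libraries, and those not given above were named after their values were seen. Degs2, the relative of Degs1 that also makes phytoceramide, was at 2.55 (IP1) and 0.55 CPM (IP2), and Ppap2c, a lipid phosphatase gene, at 2.06 and 1.14 CPM. The other 8 were lower in IP1, among them Asah1, Ppap2b, Abca1, Spns1 and Lpar3. Ormdl2 (2.16 and 5.68 CPM) and Ormdl1 (2.36 and 4.50 CPM) encode inhibitors of serine palmitoyltransferase, whereas the third gene of that family, Ormdl3, was at 18.6 and 21.5 CPM. Sptssb, a small subunit of the same enzyme, was at 1.89 and 3.38 CPM. The carrier gene Apom, whose product holds S1P in plasma lipoprotein, had 0 reads in IP1 and 7 in IP2.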
